A study of Homo sapiens and Mus musculus with 13 samples.

Results

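The clustered protocadherin genes form 3 neighbouring arrays on the long arm of human chromosome 5, and the peaks examined here are those that touch the hg19 window from 140150000 to 140900000 on that chromosome. The bounds are round positions set around the genes: 140150000 to 140400000 for the alpha cluster (PCDHA genes), 140420000 to 140630000 for the beta cluster (PCDHB genes) and 140700000 to 140900000 for the gamma cluster (PCDHG genes). A peak was taken when it touched the window by at least 1 bp, and was placed in the cluster or gap that holds most of its bases inside the window; 2 peaks counted in gamma, 1 of digest B and 1 of DRIPc, have most of their length past the window's end. In all, 60 of the 325035 peaks in the 6 human lists qualified: 12 of 67126 in digest A, 10 of 49331 in digest B, 9 of 59825 in the RNase A list, 1 of 8998 in the RNase H list, 22 of 88310 in the DRIPc list and 6 of 51445 in K562.

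The lists map RNA:DNA hybrids, the paired part of an R-loop, in which a transcript anneals to its template and displaces the other DNA strand. NT2 is an embryonal carcinoma line of testicular origin with pluripotent properties, and K562 is a leukaemia line of erythroid and myeloid character; both are established human lines, and no genotype or added agent other than the RNases is named for them. NT2 DRIP-seq, which sequences the DNA recovered by a hybrid antibody, was made after a first enzyme mix (digest A: HindIII, EcoRI, BsrGI, XbaI, SspI), after a second mix (digest B: BamHI, NcoI, ApaL1, NheI, PvuII), and after the first mix with RNase A, which degrades free RNA, or with RNase H, which degrades the RNA of hybrids. K562 DRIP-seq and NT2 DRIPc-seq, which sequences the RNA of the hybrid and so gives a strand, used the first mix. Every list is 1 sample, except that of DRIPc-seq, which stands for 2 samples, so nothing below has a replicate check and no test between groups was possible. The lists hold positions only, depth is unknown, and a base outside a peak is one where none was called.

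Each protocadherin gene encodes a cell-surface adhesion protein of the cadherin superfamily. In the alpha and gamma clusters, each gene has its own promoter and a large variable first exon that is spliced to constant exons shared by the whole cluster and lying at its far end, whereas the beta genes are mostly single exons with no shared part. Neurons switch on a small, varied choice of these promoters, which gives each cell a surface identity, and a pair of genes in alpha and 3 in gamma, the C-type genes, are under less variable control. RefSeq lists 53 protein-coding members, 15 in alpha, 16 in beta and 22 in gamma. SLC25A2 and TAF7 stand between the last beta gene and PCDHGA1, and DIAPH1 follows PCDHGC5. TAF7, which encodes a subunit of the general transcription factor TFIID, and DIAPH1, which encodes an actin-nucleating formin, have their promoters on the minus strand. All 47 protocadherin promoters in the RefSeq table are on the plus strand. This gene order is from GRCh38.p14 and the peaks are on hg19, so genes are named here only by cluster and neighbourhood, and no peak was placed on a gene.

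Promoters are shown first, because the paragraphs below describe long arrays of them with few peaks. RefSeq promoters (GRCh38.p14, 250 bases before to 50 bases after the start, the most upstream start where a gene has several) were found for 13 alpha, 14 beta and 20 gamma genes; PCDHA3, PCDHA13, PCDHB6, PCDHB11, PCDHGA12 and PCDHGC5 were not matched. The member with the most and the member with the fewest CpG dinucleotides in each cluster are printed 5′ to 3′ on the plus strand, with every CpG in capitals. In alpha these were PCDHAC1 (chr5:140926049-140926348, 27 CpG) and PCDHA2 (chr5:140794602-140794901, 3 CpG). In beta they were PCDHB3 (chr5:141100223-141100522, 12 CpG, tied with PCDHB4) and PCDHB9 (chr5:141186911-141187210, 5 CpG, tied with PCDHB10). In gamma they were PCDHGC4 (chr5:141484780-141485079, 23 CpG) and PCDHGA4 (chr5:141354771-141355070, 2 CpG). These positions are GRCh38.p14 and cannot be set beside the hg19 positions of the peaks.
PCDHAC1: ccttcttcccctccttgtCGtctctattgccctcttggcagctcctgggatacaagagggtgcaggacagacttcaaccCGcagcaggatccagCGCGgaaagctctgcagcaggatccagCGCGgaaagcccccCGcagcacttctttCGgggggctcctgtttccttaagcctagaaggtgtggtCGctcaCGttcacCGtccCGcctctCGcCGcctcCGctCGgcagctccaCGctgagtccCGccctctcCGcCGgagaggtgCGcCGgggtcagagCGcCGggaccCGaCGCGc
PCDHA2: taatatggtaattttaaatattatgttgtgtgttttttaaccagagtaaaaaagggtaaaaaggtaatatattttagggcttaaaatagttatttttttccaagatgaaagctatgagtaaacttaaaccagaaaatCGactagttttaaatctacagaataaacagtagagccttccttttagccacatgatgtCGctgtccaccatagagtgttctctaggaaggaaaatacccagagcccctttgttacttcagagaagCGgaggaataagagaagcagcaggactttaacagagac
PCDHB3: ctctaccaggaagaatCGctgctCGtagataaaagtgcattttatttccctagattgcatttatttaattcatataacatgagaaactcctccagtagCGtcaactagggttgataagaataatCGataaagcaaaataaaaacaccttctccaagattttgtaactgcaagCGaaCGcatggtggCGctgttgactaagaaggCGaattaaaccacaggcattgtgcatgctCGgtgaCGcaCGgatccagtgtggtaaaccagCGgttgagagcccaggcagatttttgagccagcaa
PCDHB9: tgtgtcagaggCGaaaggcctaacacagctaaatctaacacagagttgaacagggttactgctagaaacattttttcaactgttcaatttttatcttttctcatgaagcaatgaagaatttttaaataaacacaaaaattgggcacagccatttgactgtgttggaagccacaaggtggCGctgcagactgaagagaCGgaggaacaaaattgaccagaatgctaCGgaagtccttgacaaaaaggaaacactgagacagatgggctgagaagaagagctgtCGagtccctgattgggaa
PCDHGC4: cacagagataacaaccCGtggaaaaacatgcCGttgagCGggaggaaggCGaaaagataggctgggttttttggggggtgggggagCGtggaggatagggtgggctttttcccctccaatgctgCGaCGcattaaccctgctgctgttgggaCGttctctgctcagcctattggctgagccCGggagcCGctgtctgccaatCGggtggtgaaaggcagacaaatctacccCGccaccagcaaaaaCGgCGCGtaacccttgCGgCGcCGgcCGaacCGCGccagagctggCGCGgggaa
PCDHGA4: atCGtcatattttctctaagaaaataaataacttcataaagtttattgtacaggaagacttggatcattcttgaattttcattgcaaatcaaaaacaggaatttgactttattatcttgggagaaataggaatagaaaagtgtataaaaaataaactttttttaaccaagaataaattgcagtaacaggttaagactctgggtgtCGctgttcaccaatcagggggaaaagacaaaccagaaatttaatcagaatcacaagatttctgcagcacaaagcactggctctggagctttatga

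The protocadherin promoters were poor in G and C apart from those of the C-type genes. Over the 47, the median G and C content was 39.7% and the median CpG count 7, against 58.3% and 13 over the first promoters of all 27303 genes in the table. The 4 C-type promoters in the table, PCDHAC1, PCDHAC2, PCDHGC3 and PCDHGC4, held 59.0 to 66.0% G and C and 15 to 27 CpG. The other 43 held 32.3 to 51.3% and 2 to 16 CpG, so in G and C the 4 stood apart from all of the rest. The word CGCT, the core of the conserved element known from these promoters, was present on the gene's strand in 46 of 47, PCDHA9 being the exception, and in 53.9% of all promoters; counting both strands the share of all promoters was 69.3%. Only these 4 letters were sought, anywhere in the 300 bases, so the count is of the word and not of the whole element. The word can be read as CGct in each sequence printed above. GTGGCGCT, which contains that word, was in 13 of 14 beta promoters, in none of the alpha or gamma ones and in 0.626% of all promoters on the gene's strand (1.16% on either strand), and it was found by counting every 8-letter word in these same promoters. In the 50 bases after the start, G outnumbered C in 7 of 13 alpha, 10 of 14 beta and 3 of 20 gamma promoters, against 55.6% of all promoters. A G-rich displaced strand is a known feature of many R-loop regions. Gamma, with the lowest of these shares, had the most cover in every list but RNase H. Beta, with the highest, had no digest A, digest B or K562 peak. Whether promoter composition goes with the peaks was not tested.

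**Figure D1:**
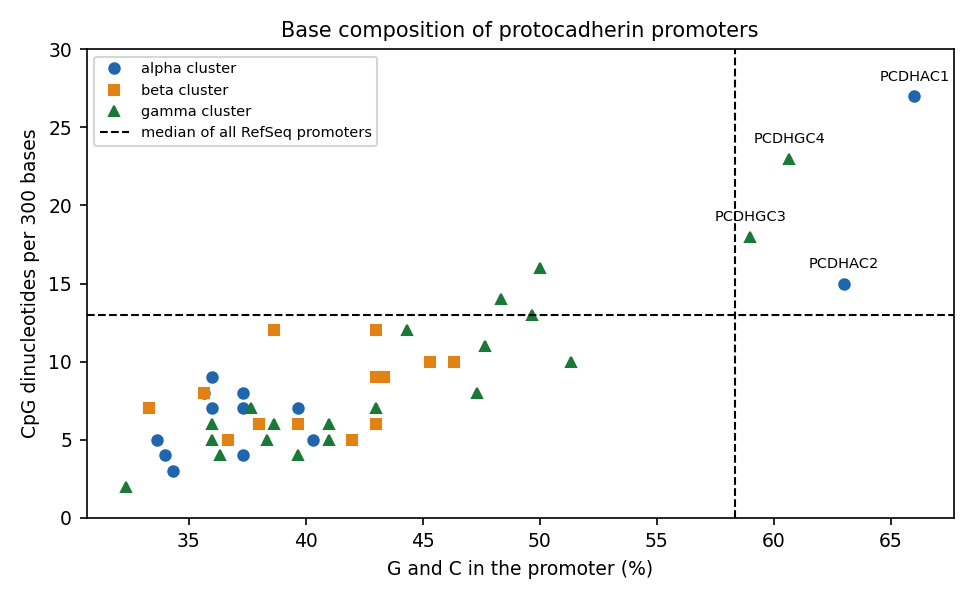
G and C content (x axis, percent) and number of CpG dinucleotides (y axis, per 300 bases) of the 47 RefSeq promoters of clustered protocadherin genes, 1 point per gene, coloured by cluster, with dashed lines at the medians of all promoters. The 4 named C-type promoters lie at 59.0% G and C or above, and the other 43 at 51.3% or below.

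The alpha and beta clusters were almost empty, and the gamma cluster held most of the cover. Digest A, digest B and K562 had no peak in alpha and none in beta, a combined 460 kb with 31 genes. In gamma, digest A covered 22.9 kb (11.5% of the cluster) with 11 peaks, digest B 38.0 kb (19.0%) with 7, DRIPc 35.4 kb (17.7%) with 15, the RNase A list 12.5 kb (6.25%) with 5 and K562 9.87 kb (4.94%) with 4, while RNase H had none. Peaks in alpha came from the RNase A list alone, with 2 peaks covering 2.58 kb (1.03%). In beta, the RNase A list had 1 peak of 2.65 kb (1.26%), DRIPc had 3 covering 3.03 kb (1.44%) and RNase H had 1 of 0.263 kb (0.125%). As background, digest A covered 2.50% of chromosome 5, digest B 4.13%, the RNase A list 2.30%, DRIPc 6.48%, K562 2.08% and RNase H 0.168%.

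**Figure D2:**
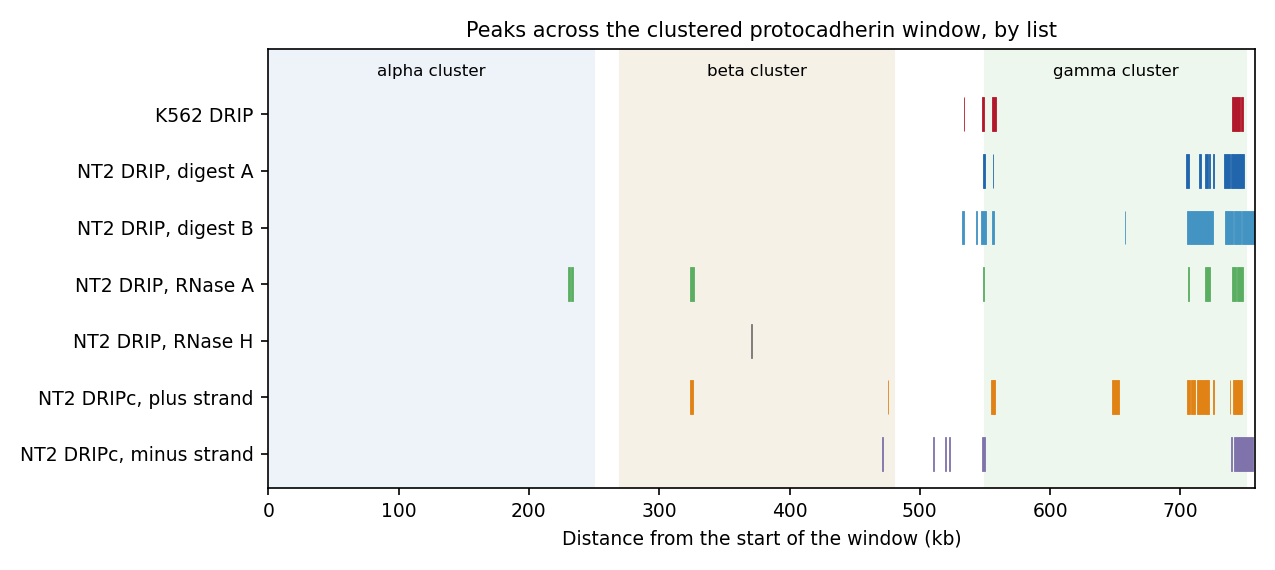
Peaks of each list (rows; DRIPc split by strand) drawn to scale against distance from the start of the window in kb (x axis), with the 3 clusters shaded. Of the 60 peaks, 7 fall in the alpha and beta clusters, and most of the rest gather in the last 50 kb of the gamma cluster.

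An empty window of the size of either cluster alone was common on the chromosome in digest A and K562. Of the 722 windows of 250 kb that tile chromosome 5 in step with the alpha cluster, 54.7% had no digest A peak and 58.0% no K562 peak. Of the 860 windows of 210 kb in step with beta, 57.0% and 60.6% had none. A window without DRIPc cover was less common, with 35.2% of those of 250 kb. By contrast, gamma ranked 55 of 903 windows of 200 kb by digest A cover, 50 by digest B, 119 by DRIPc, 84 by the RNase A list and 115 by K562. The windows include gene-poor parts of the chromosome, and no allowance was made for the number of genes in them. Alpha and beta joined into a single stretch were not set beside windows. The gap between peaks that spans both was exceeded by 2.62% of chromosome 5 gaps in digest A and 3.75% in K562.

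The alpha and beta clusters had less cover than both flanks of the window in all 6 lists. Averaged over its length, gamma was near those flanks in digest A, digest B and DRIPc. Over the 750 kb before the window, digest A covered 13.6% with 48 peaks and K562 12.7% with 37, and over the 750 kb after it 10.99% with 49 peaks and 13.6% with 43. DRIPc covered 18.2% and 12.4% of the same flanks, digest B 19.9% and 16.3%, and the RNase A list 11.2% and 13.9%. The window itself was covered to 3.24% in digest A, 5.72% in digest B, 5.70% in DRIPc, 2.50% in the RNase A list and 1.54% in K562. Gamma alone was covered to 11.5% in digest A, 19.0% in digest B and 17.7% in DRIPc. Each of these lay between the values of the window's 2 flanks. Gamma cover was 6.25% in the RNase A list and 4.94% in K562, below both flanks. The flank before the window does not adjoin gamma. In digest A, 22.4 of the 22.9 kb covered in gamma lay in its last 50 kb. The stretch without a digest A peak ran for 612 kb, from 140086223 to 140698249, and was the longest but 67 of the 2553 gaps between peaks on chromosome 5, where the median gap was 4.71 kb. In K562 the like stretch ran for 605 kb, from 140078371 to 140683509. In DRIPc, which has the small beta peaks, the longest stretch was 389 kb, from 140084859 to 140473796. These flanks were added after the values in the window had been seen.

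**Figure D3:**
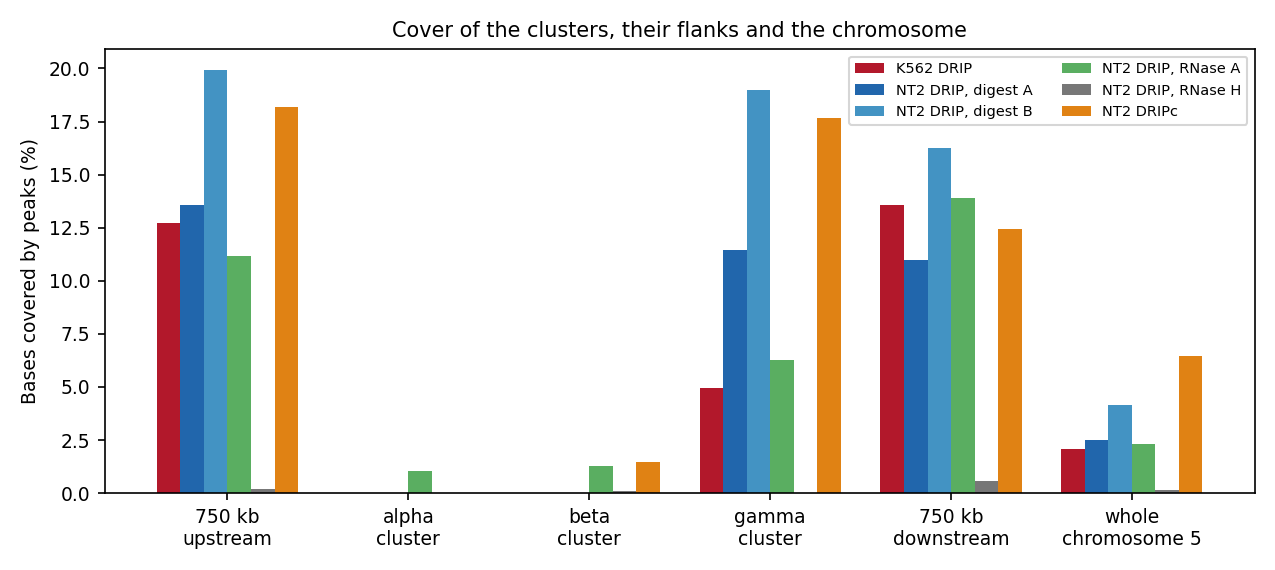
Percent of bases covered by the peaks of each list (bars, 1 list each, y axis from 0) in the 3 clusters, in 750 kb on either side of the window and on chromosome 5. Bars for alpha and beta are at 1.44% or below, while those of gamma reach 19.0% in digest B.

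The few peaks in alpha and beta were found in at most 2 lists each. The longest of them, 2653 bp in the RNase A list and 2317 bp in DRIPc, both in beta, were longer than the medians of their whole lists, 1727 and 1749 bp. The alpha peaks of the RNase A list lay from 140380090 to 140381170 and from 140381963 to 140383459, at the end of the cluster towards the beta genes, and touched no peak of another list. In beta, the RNase A peak from 140473906 to 140476558 touched a plus strand DRIPc peak from 140473797 to 140476113, which covered 83.2% of it. Over the whole lists, 53.3% of RNase A peaks touched a DRIPc peak. That region had no digest A, digest B or K562 peak. The other beta peaks were a minus strand DRIPc peak from 140621173 to 140621710, a plus strand one from 140625723 to 140625901, which is 0.179 kb long, and the RNase H peak from 140520575 to 140520837. None of these 3 touched a peak of another list.

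Between the beta and gamma clusters, the DRIPc peaks were on the strand opposite to the protocadherins. Peaks of the other lists have no strand. Of the 4 DRIPc peaks, 0 were on the plus strand (exact Clopper-Pearson 95% interval 0 to 60.2%), against 52.3% of the whole list. That share lies within the interval. All 4 DRIPc peaks there were on the minus strand: 140660004 to 140660923, 140669531 to 140669780, 140672174 to 140673495 and 140697872 to 140699765. The last lay in a region, 140697112 to 140700188, with 1 peak in each of digest A, digest B, the RNase A list, DRIPc and K562, which was 1 of 2 regions of the window present in all 5. In digest A its peak ran from 140698250 to 140699644 (1.40 kb), in the RNase A list from 140698313 to 140699362 (1.05 kb) and in K562 from 140698037 to 140699248 (1.21 kb). RefSeq places SLC25A2 and TAF7 in this interval of the gene order, and whether the peaks lie on them was not tested. A second K562 peak, from 140683510 to 140683940, touched a digest B peak (140682678 to 140683752) and no digest A peak, and digest B had a further peak from 140693278 to 140694217 that no other list held.

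Peaks at the start of the gamma bounds were shared by the cell lines. DRIPc had 3 adjoining plus strand peaks from 140704834 to 140708008, together 3.17 kb. A K562 peak from 140705683 to 140708209 (2.53 kb), a digest B peak from 140705480 to 140707207 (1.73 kb) and a digest A peak from 140705808 to 140706275 (0.468 kb) lay on them, and the RNase A and RNase H lists had none. Digest B also had a peak of 0.261 kb from 140700190 to 140700450.

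The middle of the gamma cluster was again nearly bare. Between 140708210 and 140853965, the peaks were 1 plus strand DRIPc peak from 140797258 to 140802874 (5.62 kb) and 1 digest B peak from 140807146 to 140807553 (0.408 kb), which did not touch each other or any other peak. Digest A had none over 148 kb, from 140706276 to 140853965, a gap that 7.40% of the gaps on chromosome 5 exceeded.

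Cover was highest at the end of the gamma cluster, where the constant exons and the C-type genes come in the gene order. The last 50 kb of the window, from 140850000 to 140900000, held 92.3% of the bases that digest A covered in the window, 82.5% of those of digest B, 66.6% of those of the RNase A list, 62.1% of those of DRIPc and 63.8% of those of K562. Digest B covered 70.8% of these 50 kb, DRIPc 53.1%, digest A 44.9% and K562 14.7%, and the RNase A list 12.5 of the 50 kb. Of the 15 bins of 50 kb in the window, 12 were empty in digest A, 12 in K562, 11 in digest B, 11 in the RNase A list and 8 in DRIPc. The peaks fell into 2 regions: 140853966 to 140875874 (21.9 kb) and 140883623 to 140906551 (22.9 kb), the second running past the window's end. DIAPH1 comes next in the gene order, and whether peaks of the second region, inside or past the bounds, lie on it was not tested.

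**Figure D4:**
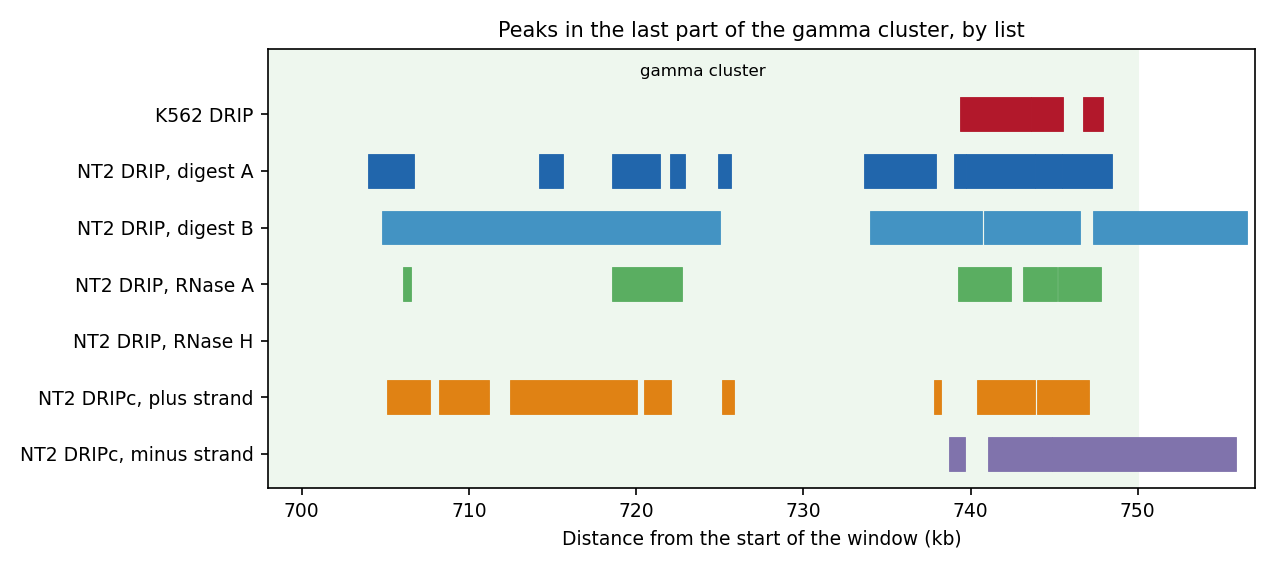
Peaks of each list in the last part of the gamma cluster, drawn to scale against distance from the start of the window in kb. K562 peaks begin at 739 kb, whereas the NT2 lists other than RNase H also have peaks to the left of that, and plus and minus strand DRIPc peaks overlap beyond 741 kb.

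The first of the 2 regions was seen in NT2 lists and not in K562. Digest A had 5 peaks there: 140853966 to 140856725 (2.76 kb), 140864173 to 140865611 (1.44 kb), 140868565 to 140871442 (2.88 kb), 140872036 to 140872899 (0.864 kb) and 140874917 to 140875647 (0.731 kb). Digest B had a single peak over most of it, from 140854780 to 140875030 (20.3 kb), the longest peak of the window. DRIPc had 5 peaks, all on the plus strand, of which the longest ran from 140862463 to 140870055 (7.59 kb). The RNase A list had 2, from 140856050 to 140856523 and from 140868531 to 140872773, so that the digest A peaks beginning at 140864173 and 140874917 had no counterpart after RNase A.

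The longest digest A peak of the window, 140883623 to 140887925 (4.30 kb), opened the second region and also had no K562 peak. Digest B covered 91.7% of it, a plus strand DRIPc peak (140887792 to 140888228) covered 3.11% and the RNase A list had nothing there. With the 5 peaks before it, it made a run of 6 digest A peaks in a row without a K562 peak, over 34.0 kb. All 6 also touched a digest B peak and a DRIPc peak. Over the whole list, 13805 of the 30379 digest A peaks without a K562 peak touched both. Counted over all digest A peaks, with or without a K562 peak, that is 20.6%, and in the window it is 6 of 12. Runs of at least 6 were common, 1303 of 9269 runs (14.1%), and in 15 of the 1303 every peak was found in digest B and DRIPc. A longer run that held 6 such peaks in a row beside others was not counted among the 15. This count was chosen after the run had been seen.

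From 140888992 onwards the cell lines overlapped again. Digest A peaks from 140888992 to 140889718, 140889720 to 140893882 (4.16 kb), 140893886 to 140895446 (1.56 kb) and 140895448 to 140898461 (3.01 kb) were touched by K562 peaks from 140889395 to 140893614 (4.22 kb), 140893616 to 140895538 (1.92 kb) and 140896745 to 140897947 (1.20 kb). K562 covered 44.6%, 99.98%, 100% and 42.9% of the 4 digest A peaks, in that order. The RNase A list had 3 peaks there and covered 61.5 to 97.1% of each of these digest A peaks. Digest B had 3 peaks that reach this stretch, from 140883981 to 140890684 (6.70 kb), from 140890804 to 140896575 (5.77 kb) and from 140897344 to 140906551 (9.21 kb).

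Strand in the gamma cluster was plus up to its last part. Of the 15 DRIPc peaks, 12 were on the plus strand (80.0%, exact Clopper-Pearson 95% interval 51.9 to 95.7%), against 52.3% of the whole list, which lies within this interval. The 10 that begin before 140888727 were all on the plus strand, the strand of the protocadherin genes. The 3 minus strand peaks were 140888727 to 140889646 (0.920 kb), 140891039 to 140894860 (3.82 kb) and 140894862 to 140905858 (10997 bp), the strand of DIAPH1. Over the window, 14 of 22 DRIPc peaks were on the plus strand (63.6%, 40.7 to 82.8%). Intervals cover counting error only, and neighbouring peaks are not independent.

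Both strands carried DRIPc peaks over 5.92 kb, all in the last 10 kb of the window. The plus strand peaks there ran from 140890375 to 140893831 (3.46 kb) and from 140893972 to 140897101 (3.13 kb), and overlapped the 2 longer minus strand peaks from 140891039 to 140893831, from 140893972 to 140894860 and from 140894862 to 140897101. This made 16.7% of the DRIPc cover of the gamma cluster, against 3.99% in the whole list. By digest A peak, 7 of 12 touched plus strand DRIPc peaks alone, 2 minus strand peaks alone and 3 both. The whole list gave 28.5%, 26.3% and 6.68%, but those shares include digest A peaks that touched no DRIPc peak. Of the 41225 that touched one, 19116 touched plus strand peaks alone, 17627 minus strand peaks alone and 4482 both. The 3 with both strands were the 3 that begin at or after 140889720.

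Spacing of the peaks was uneven, and alpha and beta had too few peaks to measure it. In gamma, the 10 distances between the centres of neighbouring digest A peaks ran from 2.29 to 149 kb with a median of 3.22 kb, and their SD was 240% of their mean. Over the 2553 distances on chromosome 5 the median was 6.97 kb and the SD 428% of the mean. Distances inside a 200 kb cluster cannot reach the longest of the chromosome, 4569 kb, so these 2 ratios cannot be compared. DRIPc peaks in gamma were 0.847 to 92.4 kb apart (median 3.77 kb, SD 192% of the mean, 14 distances), against a median of 7.04 kb on the chromosome. For K562 the 3 distances were 185, 3.07 and 2.77 kb. For the RNase A list the 4 distances were 14.4, 20.2, 3.31 and 2.36 kb, and for digest B the 6 ran from 6.02 to 101 kb. No list gave a peak at a steady interval along the array of gamma genes. Short distances partly come from adjoining peaks: when peaks within 1 kb were merged, the digest A median was 8.75 kb, and that of K562 95.2 kb.

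**Figure D5:**
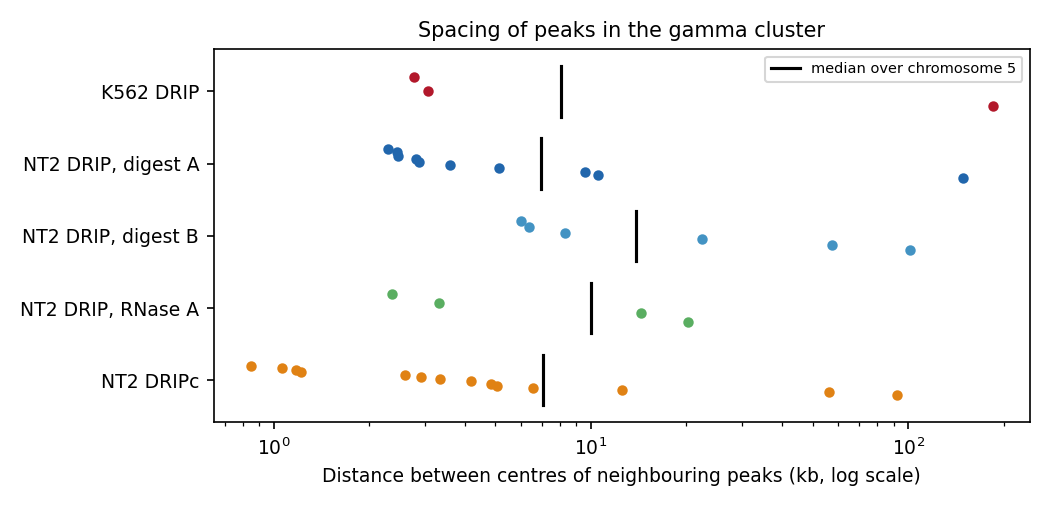
Distances between the centres of neighbouring peaks in the gamma cluster (x axis, kb, log scale), 1 point per distance and 1 row per list, with black bars at the median over chromosome 5. In digest A, 7 of 10 distances lie below that median of 6.97 kb and 1 reaches 149 kb.

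In each comparison of NT2 with K562 over the window, the share of the whole list lay within the exact Clopper-Pearson 95% interval of the window's share. Of the 12 digest A peaks, 6 touched a K562 peak (50%, 21.1 to 78.9%), against 54.7% of all digest A peaks. Of the 6 K562 peaks, 5 touched a digest A peak (83.3%, 35.9 to 99.6%), against 67.3% of the list. All 6 touched a digest B peak (100%, 54.1 to 100%), against 66.0%, and 5 a DRIPc peak, against 50.4%. For digest B, 6 of 10 peaks touched a K562 peak (60.0%, 26.2 to 87.8%), against 50.4%, and for DRIPc 9 of 22 did (40.9%, 20.7 to 63.6%), against 32.0%. The 6 digest A peaks without K562 followed each other in order, and the other 6 lay on either side of them. With 1 library per line, a difference between the lines cannot be told apart from one between libraries.

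Within NT2, all 12 digest A peaks of the window were found with digest B (100%, 73.5 to 100%), against 76.8% of the list. Of these, 5 touched the same digest B peak, and the interval takes no account of such dependence. Digest B covered 15.6% of the peak that begins at 140874917, and 91.7% of the 12 were covered over at least 50% of their length. All 12 touched a DRIPc peak (100%, 73.5 to 100%), against 61.4%. That count rests on a touch of 1 bp: DRIPc covered 7.99% of the peak that begins at 140872036 and 3.11% of that from 140883623, and 83.3% of the 12 were covered over at least 50% of their length. After RNase A, 8 of 12 were found (66.7%, 34.9 to 90.1%), against 65.5%. After RNase H none of the 12 was found, against 5.09% of the list, and a count of 0 of 12 has an exact upper bound of 26.5%. The 5 digest A peaks present in digest B, the RNase A list, DRIPc and K562 were that between the beta and gamma clusters and the 4 that begin at or after 140888992, where 30.2% of all digest A peaks were so shared. Each of these conditions is a library of its own, so an effect of the enzymes or the RNase cannot be told apart from one of the library.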

How the data were processed

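The 6 human peak lists were used as deposited by the authors: bounds in base pairs without a height, score or p-value, and with a strand in the DRIPc list only. Per the submitters' processing notes, BWA 0.6.1, TopHat2 2.0.5 and Bismark 0.7.7 were used, with no role named, and hg19 is among the builds; the sources used here do not name the peak caller, its threshold or a control library. The 2 DRIPc samples share 1 list, and the way they were combined is not given. Positions are printed counted from 1, taking the files as BED; neighbouring peaks of a list that adjoin are 1 bp apart in the files, so a start may be off by 1 bp. The RNA-seq, MethylC-seq and mouse samples were not used here.

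Cover, gaps, distances, strand and touching peaks (at least 1 bp) were computed with Python 3.11.15, numpy 2.4.6 and pandas 2.3.3, and intervals with scipy 1.17.1. Counts of touching peaks equalled those of bedtools 2.31.1 in 20 of 20 comparisons, and the functions were tested on simulated lists. Chromosome 5 was taken to end at the last peak of any list. Regions were named by rule: the 3 longest peaks of digest A, digest B and K562 per cluster, every RNase H and minus strand DRIPc peak, the 3 longest plus strand DRIPc peaks per cluster, regions in all 5 other lists, and the longest without a partner in the other line. Other peaks named were chosen after their values were seen. The members and lists were chosen with earlier results of these data known. Alternatives merged peaks within 1 kb, kept the longest 50% of each list, moved bounds out by 10 kb, asked for 50% of a peak to be covered, counted bases or used digest B.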

Additional observations from a re-analysis of the deposited data

How the results depend on the processing

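Of 151 alternative values for 49 results, 122 stayed within 1.5 times the reported value (for shares, within its interval) and 29 did not. A change of direction was not among the outcomes scored. Merging peaks or keeping the longest 50% could not give a peak to an empty cluster. Some of the 122 were therefore fixed in advance. Bounds moved out by 10 kb raised K562 cover of gamma to 7.96%. With the longest 50% of each list, the RNase A cover of alpha and the RNase H cover of beta became 0%. With peaks within 1 kb merged or the longest 50% kept, the gamma peaks numbered 7 in digest A under both, 4 in digest B under both, and 9 and 8 in DRIPc; merging left 3 in the RNase A list, and bounds moved out by 10 kb gave it 8. The median distance in gamma also changed: for digest A it was 8.75 kb with peaks within 1 kb merged, 5.57 kb with the longest 50% and 1.54 kb from edge to edge. For DRIPc it was 8.67 kb merged and 0.728 kb from edge to edge, and for K562 95.2, 93.8 and 1.21 kb under these 3 settings. For digest B it was 57.6, 8.26 and 6.99 kb, and for the RNase A list 18.6 kb merged and 3.31 kb with the longest 50%. With digest B in place of digest A, 100% of K562 peaks were found in NT2. Depth is unknown, and with 6 to 22 peaks per list a share is known only within wide intervals. No paired analysis was possible because each group compared has 1 list.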

Other observations

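Of the 12 peak edges of K562 in the window, 0 lay within 50 bp of a like edge of a digest A peak, and of the 18 edges of the RNase A list 1 did, where the shares on chromosome 5 were 11.1% and 11.4%. For digest B, made with other enzymes, it was 0 of 20, where the share on chromosome 5 was 2.61%. The edges are too few to tell these counts from the shares of the chromosome.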
